A study of Mus musculus with 52 samples.

Results

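Whole blood was compared with lymph node in the same vehicle-treated, tumor-bearing mice. The members are 8 RNA sequencing libraries of 52 in the series, chosen by their titles: 4 of vehicle blood and 4 of vehicle lymph node, from animals 1, 2, 4 and 5, with each blood library set against the node library that carries the same animal number. The titles are read here as animal numbers, and p-values measure the spread between these libraries. Animal 3 was left out by the rule. In its node library the B cell genes averaged 1.45 on the log2-CPM scale, against 7.41 to 8.16 in the 4 node libraries used.

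Both groups came from hCD40tg mice, which carry human CD40, and all were inoculated with MC38-CEACAM5, a mouse colon carcinoma line made to express human CEACAM5. All 8 libraries are from mice given vehicle alone. The series also gave other mice of this kind an antibody to CD40 (CD40 mAb) or ATOR-4066, which binds both CD40 and CEACAM5, and it sequenced whole tumors and CD45+Ly6G- cells sorted from tumors. The sample labels give the node tissue as lymph and the series' design text names lymph nodes. No source used here says which node was taken, how many were pooled, or what drives the human CD40 gene, and reads of the human gene were not analysed here.

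Haemoglobin, taken to define blood, filled most of every blood library. The B cell and T cell genes taken to define the node were present in both tissues. Of 18 B cell genes 12 were called higher in blood and 0 lower, and of 20 T cell genes 0 higher and 9 lower. Of all genes tested 29.4% were called higher and 41.1% lower. Both counts depend on the scaling between libraries, as given below. The high endothelial gene Glycam1 and the T zone chemokines Ccl19 and Ccl21a had no count in any blood library and 103 to 820.4 CPM in every node library. They are among the 12 genes that fell most here, so they describe the difference and do not test the identity of the libraries.

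Blood carries enucleated red cells and platelets together with circulating leukocytes, while a lymph node is a fixed tissue in which lymphocytes are held on a scaffold of stromal cells. Lymphocytes enter a node through high endothelial venules, guided by the receptor Ccr7 and its stromal ligands Ccl19 and Ccl21a. They leave along a gradient of sphingosine-1-phosphate, a lipid that is high in blood and low in tissue. Inside the node, dendritic cells present antigen, and germinal centers select B cells that switch their immunoglobulin class.

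Total counts were 35.1 to 44.1 M in blood and 49.2 to 60.4 M in lymph node. The 14 haemoglobin genes took 73.8, 75.6, 69.8 and 74.1 percent of all counts in the blood of animals 1, 2, 4 and 5, against 0.0834, 0.0366, 0.00772 and 0.0140 percent in their nodes. The means were 73.3 ± 2.46 percent in blood and 0.0354 ± 0.0343 percent in lymph node (SD, n = 4 each; exact two-sided sign-flip test over pairs, p = 0.125, the smallest that 4 pairs allow). Beta-globin Hbb-bs alone, at chr7:103826534-103828096 of GRCm38 (GENCODE vM21), held 33.2, 33.3, 29.6 and 33 percent of blood counts, though reads may be split between it and its near-identical neighbour Hbb-bt. With haemoglobin genes left out, 8.68 to 11.6 M counts remained in blood, so that a low gene is measured less precisely in blood than in node. All levels below are in CPM, counts scaled to the same total of this remainder, after TMM, a trimmed-mean scaling between libraries. Values by library stand in the order of animals 1, 2, 4 and 5. Changes are log2 differences, blood minus node. The SE given with a change is its size divided by the square root of edgeR's F statistic. It comes from the fit to the 4 pairs and is not the spread of the pair differences. A gene is said to rise or fall where edgeR's adjusted p was under 0.05.

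**Figure D1:**
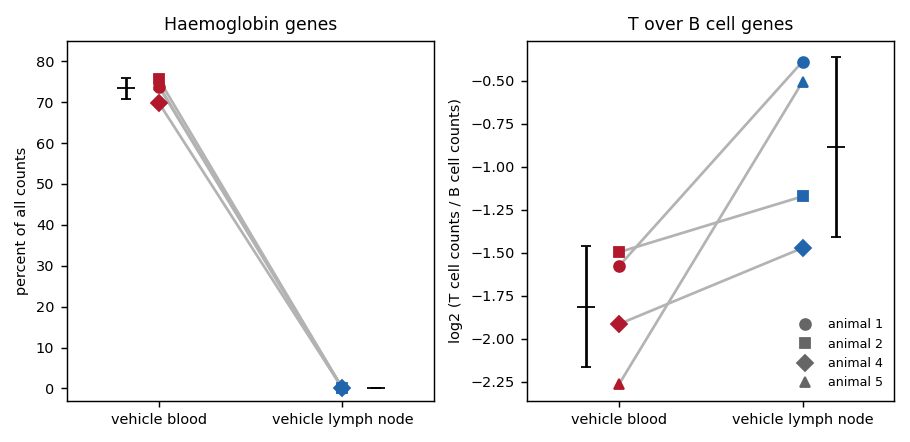
Share of all counts in haemoglobin genes (left, percent) and log2 ratio of summed T cell to summed B cell counts (right) in vehicle blood and vehicle lymph node. Symbols are animals, grey lines join the libraries of an animal, and black bars are the mean and SD of 4 libraries. The haemoglobin groups are far apart, and the T to B ratio is lower in blood in all 4 animals.

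Of 16846 genes tested with edgeR, 4957 were higher in blood (29.4%) and 6925 lower (41.1%) at an adjusted p under 0.05. Counts of list members below are to be read beside these shares. The 4 blood and 4 node libraries did not overlap for 68.0% of genes tested, with blood above in 27.5% and below in 40.5%. Beyond a 2-fold change, 1833 were higher (10.9%) and 3297 lower (19.6%). The median log2 change of all genes, as blood minus node, was -0.22. The split depended on the scaling: 41.7% of calls were higher in blood here, but 15% without TMM factors and 20.4% when the pan-leukocyte genes were held equal. Those scalings moved the median of all genes by -0.79 and -0.55, so changes under 1 on the log2 scale are relative to the scaling, and ratios within a library are not. Adding animal 3, whose node library was poor in B cell genes, gave 3873 higher and 5330 lower calls, and results that lose their call with it are named where they stand. In these bulk samples, fewer cells of a type and less RNA per cell cannot be told apart.

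Genes of the red cell were high in blood. Among red cell membrane genes 17 rose and 2 fell of 21 tested, with a median log2 change of 7.47, and among erythroid regulators and late erythroid genes 23 rose and 0 fell of 24 tested, with a median log2 change of 5.49. Alas2, the first enzyme of heme synthesis in red cell precursors, had 82658, 95746, 70359.7 and 81198 CPM in blood, against 7.88, 3.09, 0.624 and 1.05 CPM in lymph node. Every blood library lay far above every node library, and node 1 was the highest node, as it was for haemoglobin.

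Alas2 rose by 15.19 ± 1.00 (SE, n = 4 pairs; edgeR adjusted p = 0.000156) on the log2 scale. Slc4a1, the anion exchanger band 3 of the red cell membrane, averaged 1891 ± 202 CPM in blood and 0.111 ± 0.161 CPM in lymph node (SD, n = 4 each), and rose by 14.19 ± 0.65 (SE, n = 4 pairs; edgeR adjusted p = 2.39e-05) on the log2 scale. Epb42, which binds band 3, rose by 13.84 ± 0.26. Node 1 held the highest node level of all 3 genes. Without animal 1 the changes were 15.85 for Alas2 and 15.73 for Slc4a1, and the 2 node counts of Epb42 were all in animal 1. Without that animal the median of the red cell membrane list was 8.10. Ank1, which links spectrin to band 3, had 201, 169.8, 157 and 213 CPM in blood, against 0.541, 0.538, 0.325 and 0.681 CPM in lymph node, and its groups did not overlap. Sptb, beta-spectrin, rose by 7.02 ± 0.13, and Epb41, which ties spectrin to actin, by 7.47 ± 0.18.

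Hhla1, Slc38a5 and Kel had no count in any node library, so only a lower bound of the fold can be given, against a floor of 3 counts over the 4 nodes. Hhla1 had 131, 317, 177 and 125 CPM in blood and was at least 17343-fold higher. The amino acid transporter Slc38a5 had 48.4, 68, 38.6 and 58.3 CPM in blood, at least 5036-fold higher, and the Kell blood group gene Kel had 51.1, 55, 36.9 and 51.1 CPM, at least 4652-fold higher. Trim10, a ubiquitin ligase of late erythroid cells, had 660.2, 659, 510.0 and 669 CPM in blood, against 0.0318, 0.0276, 0.0136 and 0.0124 CPM in lymph node. It rose by 14.68 ± 0.20 (SE, n = 4 pairs; edgeR adjusted p = 7.25e-12). Tspo2, an erythroid relative of a mitochondrial translocator, rose by 13.33 ± 0.32, or 14.81 without animal 1.

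Ube2o, a ubiquitin enzyme that clears ribosomal proteins from reticulocytes, had 7571, 7971, 5833 and 7559 CPM in blood, against 18.8, 22.2, 19.3 and 21.6 CPM in lymph node, and rose by 8.46 ± 0.17 (SE, n = 4 pairs; edgeR adjusted p = 4.55e-11). Bpgm, which makes the 2,3-bisphosphoglycerate that lowers oxygen affinity of haemoglobin, had 30221, 32675, 23318 and 28497 CPM in blood, against 21.8, 20.6, 19.5 and 18.3 CPM in lymph node, and rose by 10.47 ± 0.21 (SE, n = 4 pairs; edgeR adjusted p = 4.55e-11). Nfe2, a transcription factor of erythroid and megakaryocytic cells, rose by 8.16 ± 0.16. Each of these genes was higher in blood in 4 of 4 pairs. Slc2a4, the insulin-regulated glucose transporter of fat and muscle, is on the red cell membrane list but fell by 6.09 ± 0.23 on the log2 scale (chosen after its values were seen).

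Heme synthesis and iron genes divided. Of 19 tested, 9 rose and 4 fell, with a median log2 change of 0.25, which turned to -0.54 without TMM factors, where 6 rose and 10 fell, and to -0.30 with pan-leukocyte scaling. Fech, which inserts iron into heme, had 8479, 9215, 6812 and 7863 CPM in blood, against 32.2, 26.5, 24.1 and 23.5 CPM in lymph node. The mitochondrial iron importer Slc25a37 had 2167, 2269, 1926 and 2530.2 CPM in blood, against 41.7, 38.3, 39.1 and 37.3 CPM in lymph node. The groups were separate for both genes, with log2 changes of 8.25 ± 0.17 and 5.82 ± 0.14 (SE, n = 4 pairs). The mitochondrial carrier Slc25a39 rose by 6.29 ± 0.17 and the heme pathway enzyme Urod by 2.51 ± 0.10.

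The promoters of this group are shown because Gata1 and Klf1, the master regulators of erythroid genes, bind GATA and CACCC motifs. The RefSeq promoter table for GRCm38.p6 held entries for 43 of the 65 genes of the 3 erythroid lists, and the 250 bases before each start were searched on both strands. AGATAA or its reverse complement TTATCT occurred in 10 of 43 (23.3%), against 2771 of 27025 promoters of all genes (10.3%). CCACCC or its reverse complement GGGTGG occurred in 21 of 43 (48.8%), against 27.7% of all promoters. In other lists it occurred in 38.5% of B cell, 36.8% of mature neutrophil, 28.6% of stromal and 22.2% of platelet promoters. The GATA match occurred in 16.7% of platelet, 5.26% of mature neutrophil and 0% of B cell and stromal promoters. These lists held 13 to 19 promoters each. Matches were listed by gene only for the erythroid lists and the haemoglobin genes. Of the 10 erythroid-list genes with a GATA match, Steap3 alone had a log2 change below 0, at -1.16. Those of the 10 that are also among the 12 most raised genes are Alas2, Kel, Trim10 and Epb42. The first 3, which have the longest stretch outside annotated exons, are printed with the beta-globin gene Hbb-bs, 5′ to 3′ on the gene's strand, up to the first annotated exon. Capitals mark the letters of either motif, on either strand. The stretches are chrX:150547167-150547374 (plus strand), chr6:41704340-41704575 (minus), chr17:36869324-36869573 (plus) and chr7:103828097-103828178 (minus).
Alas2: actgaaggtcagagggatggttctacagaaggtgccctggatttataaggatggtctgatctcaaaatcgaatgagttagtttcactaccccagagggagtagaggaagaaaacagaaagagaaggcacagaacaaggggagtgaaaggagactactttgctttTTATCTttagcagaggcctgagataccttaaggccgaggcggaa
Kel: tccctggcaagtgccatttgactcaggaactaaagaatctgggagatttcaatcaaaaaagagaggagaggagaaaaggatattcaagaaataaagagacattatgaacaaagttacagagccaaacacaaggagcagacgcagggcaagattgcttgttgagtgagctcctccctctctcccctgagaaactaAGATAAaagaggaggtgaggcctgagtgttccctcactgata
Trim10: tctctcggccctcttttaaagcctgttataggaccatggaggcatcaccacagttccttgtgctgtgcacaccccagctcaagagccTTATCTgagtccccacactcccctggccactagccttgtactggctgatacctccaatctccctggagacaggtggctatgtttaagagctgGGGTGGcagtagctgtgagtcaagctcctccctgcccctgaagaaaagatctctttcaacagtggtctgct
Hbb-bs: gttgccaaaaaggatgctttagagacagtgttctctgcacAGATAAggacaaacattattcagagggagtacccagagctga
The GATA match begins 86, 56, 163 and 210 bases before the RefSeq start of Alas2, Kel, Trim10 and Hbb-bs. A match is a match of letters and does not show that a factor binds there.

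Platelet and megakaryocyte genes all rose. All 22 tested were higher in blood, with a median log2 change of 8.34, and in all 22 the blood libraries lay above the node libraries, where 27.5% of all genes did so. Gp9, a subunit of the platelet receptor for von Willebrand factor, had 344, 401, 399.6 and 314 CPM in blood, against 0.0318, 0.0276, 0.0271 and 0.0247 CPM in lymph node. Its partner Gp5 had 163, 195, 189 and 127 CPM in blood, against 0.0637, 0.0414, 0.0678 and 0.0619 CPM in lymph node. Tubb1, the beta-tubulin of the platelet rim, had 488, 548, 617 and 404 CPM in blood, against 0.0478, 0.0552, 0.0407 and 0.0124 CPM in lymph node. The 4 nodes together held 8, 17 and 11 counts of Gp9, Gp5 and Tubb1. The log2 changes were 13.53 ± 0.17 (SE, n = 4 pairs; edgeR adjusted p = 7.20e-12) for Gp9, 11.40 ± 0.16 (SE, n = 4 pairs; edgeR adjusted p = 7.25e-12) for Gp5 and 13.61 ± 0.19 (SE, n = 4 pairs; edgeR adjusted p = 7.25e-12) for Tubb1. The collagen receptor Gp6 rose by 12.59 ± 0.21, and the integrin Itga2b, which binds fibrinogen, by 6.75 ± 0.18. Itga2b is on the lymphatic endothelial list as well, where 3 of 12 rose and 9 fell.

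**Figure D2:**
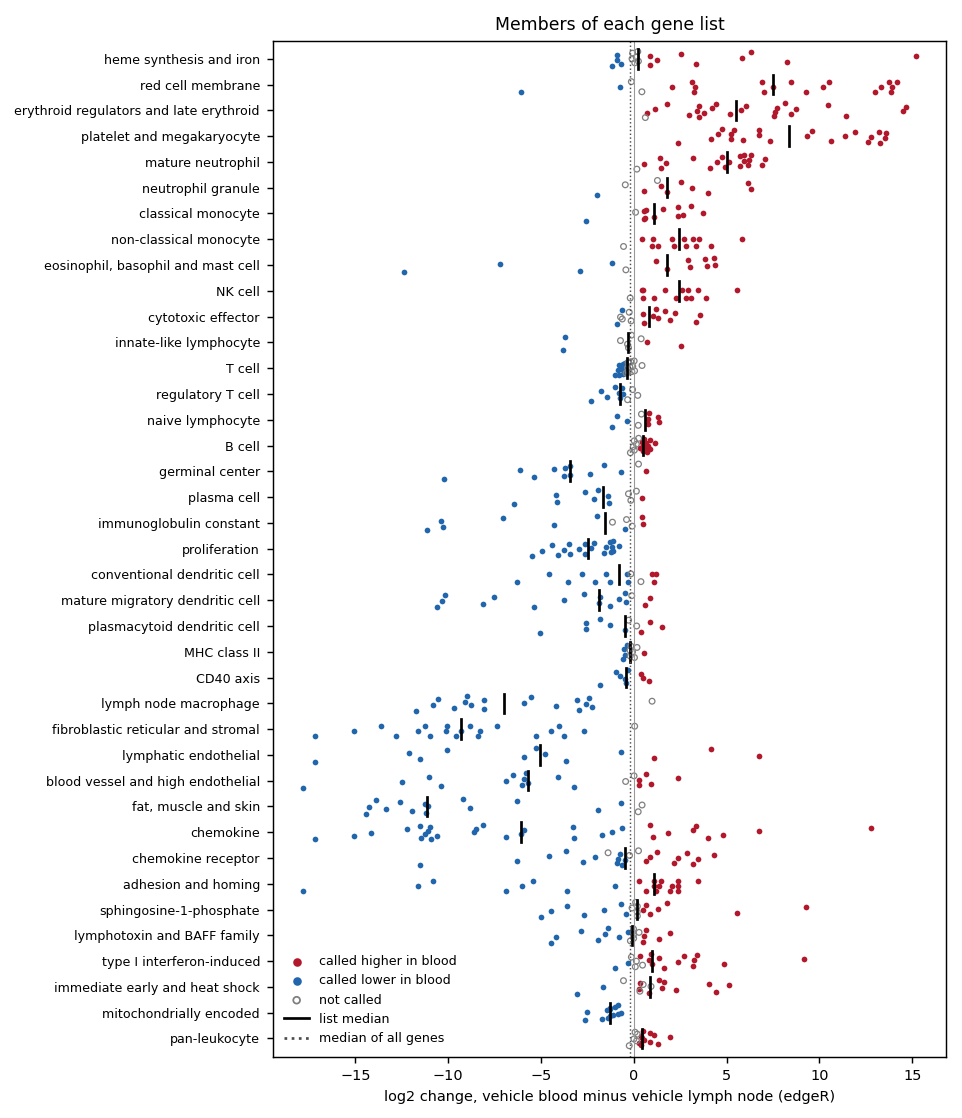
Log2 change of each tested member, vehicle blood minus vehicle lymph node, by gene list. Red points were called higher in blood, blue points lower (adjusted p under 0.05) and open points were not called. Black ticks are list medians and the dotted line is the median of all genes, -0.22. Platelet, red cell membrane, erythroid regulator, neutrophil and NK cell lists lie to the right. Stromal, macrophage, tissue, germinal center and plasma cell lists lie to the left. The medians of the B cell, T cell, naive lymphocyte and heme lists lie nearer 0. The B cell, naive lymphocyte, heme, sphingosine-1-phosphate and pan-leukocyte medians turn negative without TMM factors.

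Neutrophil transcripts were higher in blood. Among mature neutrophil genes 19 rose and 0 fell of 20 tested, with a median log2 change of 5.03. Csf3r, the receptor for the neutrophil growth factor G-CSF, had 467, 415, 487 and 353 CPM in blood, against 10.1, 8.31, 6.51 and 7.71 CPM in lymph node. It rose by 5.73 ± 0.15 (SE, n = 4 pairs; edgeR adjusted p = 2.41e-10). Trem1, an activating receptor of neutrophils and monocytes, averaged 27.6 ± 10.3 CPM in blood and 0.386 ± 0.351 CPM in lymph node (SD, n = 4 each) and rose by 6.32 ± 0.26. Padi4, the enzyme that citrullinates histones in neutrophils, rose by 4.48 ± 0.19, and Ifitm6 by 4.93 ± 0.15.

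Granule genes were less uniform. Of 14 listed, 11 passed the filter on low counts, and 8 of these rose and 1 fell, with a median log2 change of 1.79. Mmp8 and Mmp9, proteases of the specific and gelatinase granules, rose by 6.31 ± 0.39 and 3.97 ± 0.20. Chil3, a chitinase-like protein, had 165, 143, 149 and 167 CPM in blood, against 1.91, 2.85, 2.44 and 1.61 CPM in lymph node. Cebpe, the factor that drives late granule genes in the bone marrow, was low in both tissues, at 3.30, 5.63, 3.22 and 1.27 CPM in blood, against 0.780, 0.372, 0.176 and 0.247 CPM in lymph node, and rose by 3.12 ± 0.47 (SE, n = 4 pairs; edgeR adjusted p = 0.000127). The primary granule genes Mpo, Elane and Ctsg were under the filter, and Prtn3, of the same granule, fell by 2.00 ± 0.49 (chosen after its values were seen).

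Monocyte genes rose. Of the 14 non-classical monocyte genes 13 rose and none fell, with a median of 2.42, and of the 13 classical ones 11 rose and 1 fell, with a median of 1.09. Without TMM factors 10 rose and 2 fell of the non-classical genes, and 6 rose and 2 fell of the classical ones. Cd300e, an activating receptor of non-classical monocytes, had 21.3, 26.2, 25.9 and 26.2 CPM in blood, against 0.509, 0.345, 0.352 and 0.582 CPM in lymph node. Treml4, a receptor of the same cells, had 40.7, 60.9, 58.2 and 44.6 CPM in blood, against 2.32, 3.32, 2.47 and 3.09 CPM in lymph node. The groups were separate for both, with log2 changes of 5.80 ± 0.21 (SE, n = 4 pairs; edgeR adjusted p = 2.06e-09) and 4.18 ± 0.14 (SE, n = 4 pairs; edgeR adjusted p = 9.71e-10). Adgre4 rose by 3.35 ± 0.11 and Ace, angiotensin-converting enzyme, by 3.49 ± 0.15.

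Ccr2, the receptor by which classical monocytes leave the bone marrow, had 291, 216, 235 and 133 CPM in blood, against 57, 41.9, 33.6 and 32.5 CPM in lymph node. It rose by 2.39 ± 0.12 (SE, n = 4 pairs; edgeR adjusted p = 4.13e-08), and blood 5 was the lowest of the blood libraries. Clec4a3 rose by 2.41 ± 0.21 and Csf1r, the growth factor receptor of the lineage, by 1.56 ± 0.16. Ly6c1, which endothelium also expresses, was the member that fell, with 5.72, 4.98, 3.47 and 2.96 CPM in blood, against 43.7, 26, 19.5 and 16.7 CPM in lymph node, a log2 change of -2.60 ± 0.15 (SE, n = 4 pairs; edgeR adjusted p = 7.14e-08). Of 13 tested eosinophil, basophil and mast cell genes 8 rose and 4 fell, with a median of 1.81, or 2.50 without animal 1. Gata2 rose by 3.04 ± 0.15 and the IgE receptor chain Ms4a2 by 3.92 ± 0.36, while the connective tissue mast cell protease Mcpt4 was at 0 in every blood library and at 18.6, 14.4, 17.7 and 15.6 CPM in lymph node, at least 167-fold lower in blood. The mast cell tryptase Tpsb2 fell by 7.21 ± 0.56, with its 2 blood counts all in animal 2, and by 6.50 without animal 1.

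NK cell genes rose. Of 14 tested 13 rose and none fell, with a median log2 change of 2.41. All but 3 of the 14 had blood libraries that lay above every node library, where 27.5% of all genes did so. Without TMM factors 10 rose and 2 fell. S1pr5, the sphingosine-1-phosphate receptor that lets NK cells leave tissue, had 31.9, 35.7, 40.1 and 30.2 CPM in blood, against 0.684, 0.910, 0.678 and 0.619 CPM in lymph node, and rose by 5.57 ± 0.16 (SE, n = 4 pairs; edgeR adjusted p = 2.82e-10). Ncr1, the natural cytotoxicity receptor NKp46, had 37.1, 29.3, 26.5 and 20.3 CPM in blood, against 3.92, 3.45, 3.39 and 2.47 CPM in lymph node. Klrb1c, the NK1.1 antigen, rose by 2.94 ± 0.12 and Il18rap, a chain of the interleukin-18 receptor, by 2.58 ± 0.11. The groups of these genes did not overlap.

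Of 16 cytotoxic effector genes tested 10 rose and 2 fell, with a median of 0.80, and without TMM factors 6 rose and 7 fell. Gzma, granzyme A, had 161, 159.8, 145 and 114 CPM in blood, against 22.6, 10.8, 12.1 and 7.14 CPM in lymph node, and rose by 3.57 ± 0.21 (SE, n = 4 pairs; edgeR adjusted p = 9.47e-06). Klrg1, a receptor of terminal effector cells, rose by 2.23 ± 0.27, Zeb2, a transcription factor of the same state, by 1.32 ± 0.10, and the chemokine Ccl3 by 3.34 ± 0.32. Among innate-like lymphocyte genes 2 rose and 2 fell of 9 tested, beside 29.4% of all genes called higher and 41.1% lower. Without TMM factors 1 rose and 6 fell. Zbtb16, the factor of NKT and other innate-like T cells, rose by 2.53 ± 0.26 (SE, n = 4 pairs; edgeR adjusted p = 6.79e-06).

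T cell transcripts were lower in blood relative to B cell transcripts. The log2 ratio of the summed counts of 20 T cell genes to those of 18 B cell genes was -1.58, -1.5, -1.91 and -2.26 in blood, against -0.39, -1.17, -1.47 and -0.50 in lymph node. It was lower in blood in 4 of 4 animals, by a mean of -0.93 with an SD of 0.67 over pairs, and the groups did not overlap, though blood 2 and node 4 lay close together. The exact two-sided sign-flip test gave p = 0.125, the smallest that 4 pairs allow. This ratio does not depend on how libraries are scaled.

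On the TMM scale 12 of 18 B cell genes rose and none fell, with a median log2 change of 0.49, but without TMM factors none rose and 8 fell (median -0.31), and with pan-leukocyte scaling 2 rose and 6 fell (median -0.06). Of these genes 1 rose and none fell with animal 3 included. Pax5, which sets B cell identity, had 449, 387, 498 and 567 CPM in blood, against 158, 212, 291 and 226 CPM in lymph node. It rose by 1.12 ± 0.13 (SE, n = 4 pairs; edgeR adjusted p = 2.68e-05), and its groups were separate. Ralgps2 rose by 0.88 ± 0.12, Ebf1, another factor of B cell identity, by 0.77 ± 0.11, and Fcmr, the IgM receptor, by 0.71 ± 0.11. The calls of Pax5 (edgeR adjusted p = 0.253), Ralgps2 (0.114) and Fcmr (0.419) were lost with animal 3 included, and those of Pax5 (0.33) and Ralgps2 (0.09) also without TMM factors. Ebf1 and Fcmr turned to -0.02 and -0.08 without TMM factors.

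Among T cell genes none of 20 rose and 9 fell, with a median of -0.38, beside 41.1% of all genes called lower. Without TMM factors or with pan-leukocyte scaling 19 fell, and with animal 3 included none was called and the median was 0.17. Cd3g, a signalling chain that T cell receptors need, had 88.7, 95.8, 58 and 71.1 CPM in blood, against 193, 121, 129 and 185 CPM in lymph node, and fell by 1.00 ± 0.16 (SE, n = 4 pairs; edgeR adjusted p = 0.000694). The receptor constant genes Trbc2 and Trbc1 fell by 0.86 ± 0.15 and 0.81 ± 0.16 and Cd3d by 0.69 ± 0.17, and the 2 Trbc genes are alike enough that reads may be shared between them. With animal 3 included the calls of Cd3g (edgeR adjusted p = 0.599), Trbc2 (0.800), Trbc1 (0.816) and Cd3d (0.895) were lost. Of 11 regulatory T cell genes none rose and 8 fell, and with animal 3 included 3 fell. Tnfrsf4, the costimulatory receptor OX40, had 2.09, 2.89, 3.34 and 3.53 CPM in blood, against 15.4, 15.7, 15.2 and 12.3 CPM in lymph node. Il2ra, the high-affinity interleukin-2 receptor chain, fell by 1.46 ± 0.13, Tigit, an inhibitory receptor, by 1.76 ± 0.20, and Tnfrsf18, the receptor GITR, by 0.81 ± 0.13 (edgeR adjusted p = 0.0878 with animal 3 included).

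Genes of naive lymphocytes divided, with 5 of 10 rising and 3 falling (median 0.59), and 2 rising and 4 falling without TMM factors (median -0.20) and 1 each with animal 3 included. Foxp1, which keeps naive cells quiescent, had 259, 265, 271 and 329 CPM in blood, against 96.1, 104, 119.8 and 129 CPM in lymph node, and rose by 1.33 ± 0.09 (SE, n = 4 pairs; edgeR adjusted p = 3.25e-07). Bach2, which restrains effector differentiation, had 150.1, 144, 169.6 and 179.9 CPM in blood, against 50.5, 63.2, 68.6 and 74.5 CPM in lymph node, and rose by 1.33 ± 0.09 (SE, n = 4 pairs; edgeR adjusted p = 3.58e-07). Satb1, a chromatin organizer, rose by 0.84 ± 0.11, while Igfbp4, a binding protein for insulin-like growth factors, fell by 1.16 ± 0.12. With animal 3 included the calls of Bach2 (edgeR adjusted p = 0.0692) and Satb1 (0.117) were lost, and without TMM factors Satb1 stood at 0.05. The lymphotoxin and BAFF family had 5 higher and 8 lower of 18, near the 29.4% and 41.1% of all genes. Without TMM factors the family had 2 and 14. Its median of -0.10 was 0.21 with animal 3 included. Tnfsf14, the ligand LIGHT, rose by 1.97 ± 0.15 and the TNF receptor Tnfrsf1b by 1.37 ± 0.12. Tnfsf11, the ligand RANKL that node stroma makes, fell by 4.48 ± 0.24, and Relb, of the non-canonical NF-kappaB pathway, by 0.81 ± 0.08.

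Of 13 germinal center genes tested 11 fell and 1 rose, with a median of -3.44, and with animal 3 included 6 fell. The summed level of the list overlapped between the tissues, at 231 to 276 CPM in blood, against 224 to 350.0 CPM in lymph node, and Cxcr5, on the list as well, averaged 145 ± 20.5 CPM in blood and 124 ± 29.7 CPM in lymph node of it (SD, n = 4 each). Pdcd1, the receptor PD-1 of follicular helper T cells, had 0.550, 0.965, 0.867 and 0.423 CPM in blood, against 13.3, 15.8, 13 and 11.7 CPM in lymph node, and fell by 4.27 ± 0.23 (SE, n = 4 pairs; edgeR adjusted p = 5.60e-08). Mybl1, of germinal center B cells, fell by 3.44 ± 0.26, and Tox2, of follicular helper cells, by 3.72 ± 0.30.

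The immunoglobulin classes separated the tissues. Of 12 constant genes tested 7 fell and 2 rose, with a median of -1.56, and without TMM factors 11 fell and none rose. Adding animal 3 left 3 that fell and none that rose. Ighg1 (chr12:113325240-113330523), the IgG1 constant gene, had 0.550, 3.86, 1.36 and 1.41 CPM in blood, against 639, 3509, 1651 and 2807 CPM in lymph node, and fell by 10.26 ± 0.21 (SE, n = 4 pairs; edgeR adjusted p = 4.55e-11). Ighg2c had 0.440, 0.643, 1.11 and 1.27 CPM in blood, against 109.8, 2985, 1136 and 1276 CPM in lymph node. Node 1 was the lowest node for both, yet every blood library lay below every node library. Ighe, the IgE constant gene, fell by 11.15 ± 0.29 and Ighg2b by 7.05 ± 0.78. Without animal 1 these were -10.40 for Ighe and -7.74 for Ighg2b, without animal 2 it was -9.77 for Ighg2c, and the 1 blood count of Ighe was in animal 4. Ighm and Ighd, the classes of naive B cells, rose by 0.42 ± 0.15 and 0.48 ± 0.13 on the TMM scale and turned to -0.37 and -0.31 without TMM factors (both chosen after their values were seen). The call for Ighm was lost without animal 1 (0.25, edgeR adjusted p = 0.179), without animal 2 (0.42, edgeR adjusted p = 0.0538) and without animal 5 (0.36, edgeR adjusted p = 0.109), and with animal 3 included those of Ighm (edgeR adjusted p = 0.385) and Ighd (0.483) were lost.

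As a share of all heavy chain constant counts in a library, which no scaling changes, the switched classes together took 1.68, 4.16, 2.25 and 1.25 percent in blood, against 38.3, 78, 61.1 and 70.5 percent in lymph node. Ighm took 72.1, 72.2, 70.8 and 70.7 percent in blood, against 43.8, 17, 28.6 and 22 percent in lymph node. Ighg1 took 0.0191, 0.119, 0.0509 and 0.0416 percent in blood, against 24.1, 30.7, 24.6 and 38.4 percent in lymph node. No blood library came near a node library in these 3 shares, and node 2 held the most switched counts while node 1 held the least. Igha, the IgA gene of mucosal plasma cells, took 1.29, 3.72, 1.84 and 0.928 percent in blood, against 1.15, 0.695, 1.09 and 0.715 percent in lymph node, with no separation of the groups. These shares are of counts and are not corrected for gene length, and near-identical constant genes such as Ighg2b and Ighg2c may share reads. They are given as a description, with no test.

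**Figure D3:**
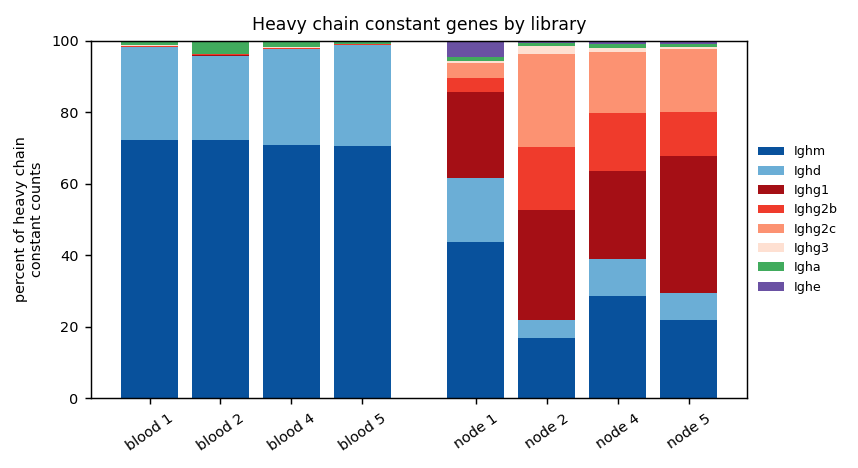
Share of each heavy chain constant gene among all heavy chain constant counts, in percent, for the 4 vehicle blood and 4 vehicle lymph node libraries, named by animal. Bars are stacked to 100. Switched classes together take 1.25 to 4.16 percent in blood, against 38.3 to 78.0 percent in lymph node.

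Plasma cell genes fell too, 8 of 12 against 1 that rose, with a median of -1.67. Jchain, which links IgA and IgM chains, had 4.51, 20.7, 8.55 and 3.67 CPM in blood, against 235, 1385, 741 and 868 CPM in lymph node, and fell by 6.45 ± 0.36 (SE, n = 4 pairs; edgeR adjusted p = 1.59e-05). Node 1 was the lowest node and node 2 the highest, as for the IgG genes. The secretory pathway genes Derl3 and Creld2 fell by 4.15 ± 0.41 and 1.93 ± 0.15, with -4.81 for Derl3 without animal 1, and Sdc1, a surface proteoglycan of plasma cells, by 1.40 ± 0.13.

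Every one of the 20 proliferation genes fell, with a median log2 change of -2.45, and in all 20 the blood libraries lay below the node libraries, where 40.5% of all genes did so. Top2a, which untangles DNA before division, had 8.80, 9.81, 7.06 and 7.90 CPM in blood, against 73.6, 109, 93.4 and 90.3 CPM in lymph node, and fell by 3.44 ± 0.12 (SE, n = 4 pairs; edgeR adjusted p = 1.62e-09). Ccnb1, the cyclin of mitotic entry, had 0.440, 1.13, 0.619 and 0.423 CPM in blood, against 21.2, 37.2, 30.2 and 27.1 CPM in lymph node, and fell by 5.50 ± 0.19. Rrm2, a subunit of ribonucleotide reductase, fell by 3.47 ± 0.14, and Stmn1, a regulator of microtubules, by 2.93 ± 0.10. Node 1 was the lowest node for each of these 4 genes.

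Among fibroblastic reticular and stromal genes 20 of 21 fell, with a median log2 change of -9.32, or -8.41 with the 5 members that had no count in blood set at their bound, and -10.18 without animal 2. Enpp2, the enzyme autotaxin, had 0.110, 0.161, 0.124 and 0.141 CPM in blood, against 134, 145, 151 and 168 CPM in lymph node, and fell by 10.11 ± 0.17 (SE, n = 4 pairs; edgeR adjusted p = 1.94e-11). Mfge8, which follicular dendritic cells use to mark dying cells, had 8.25, 12.7, 10.4 and 12.6 CPM in blood, against 384, 403, 447 and 444 CPM in lymph node, and fell by 5.27 ± 0.13. The summed level of the list was 633 to 847 CPM in blood, against 3146 to 3361 CPM in lymph node. Col3a1, a fibrillar collagen, had 0.440, 0.322, 0 and 0.423 CPM in blood, against 573, 292, 238 and 147 CPM in lymph node, with node 1 the highest node.

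Of 19 blood vessel and high endothelial genes 12 fell. Glycam1 (chr15:103562759-103565081), a secreted mucin of high endothelial venules, had no count in blood and 820.4, 571, 709.7 and 718 CPM in lymph node, at least 7124-fold lower in blood. Plvap, of fenestrated endothelium, had 5.50, 6.11, 5.57 and 4.51 CPM in blood, against 81.7, 95, 82.9 and 109 CPM in lymph node, and fell by 4.07 ± 0.13. The caveolin Cav1 fell by 6.51 ± 0.17, the progenitor and endothelial antigen Cd34 by 6.01 ± 0.19, and the vessel factor Egfl7 by 5.83 ± 0.19. Esam, an adhesion molecule that platelets carry as well as endothelium, rose by 2.39 ± 0.11. The scavenger receptors Stab1 and Stab2 of sinus endothelium fell by 4.79 ± 0.22 and 5.94 ± 0.29. The median of the vessel list was -5.68, or -4.07 with its 5 members at 0 in blood set at their bound, where 5 of 19 rose (1 without TMM factors), and that of the lymphatic list was -5.04, or -4.95 with 4 members at their bound. The summed level of the lymphatic list ran the other way, 1423 to 1932 CPM in blood, against 532 to 841 CPM in lymph node, with Itga2b, also a platelet gene, averaging 1450.3 ± 220.2 CPM in blood and 13.5 ± 2.37 CPM in lymph node (SD, n = 4 each).

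Lymph node macrophage genes fell in 17 of 18 tested, with a median of -6.99, or -5.72 with 2 members at their bound, and none rose. Cd209b, a lectin of marginal and sinus macrophages, had 0.220, 0.161, 0.124 and 0.141 CPM in blood, against 114, 115, 120.0 and 202 CPM in lymph node. Marco, a scavenger receptor of medullary macrophages, had 0, 0.161, 0.124 and 0.564 CPM in blood, against 72.6, 80.9, 76.8 and 118 CPM in lymph node. C1qb, a chain of the complement starter C1q, had 0.550, 0.643, 0.124 and 0.988 CPM in blood, against 208, 131, 129.7 and 127 CPM in lymph node. In each the blood values were under 1 CPM and the groups were far apart, with falls of 9.67 ± 0.18 for Cd209b, 8.75 ± 0.24 for Marco and 8.07 ± 0.23 for C1qb. Vcam1, an adhesion molecule of stroma and macrophages, fell by 10.81 ± 0.25. Without animal 5 the change of Marco was -9.75, and without animal 2 that of Vcam1 was -11.49.

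The node libraries also carried genes of fat, muscle and skin. Of 16 tested, 14 fell and none rose, with a median of -11.16, or -7.89 with 6 members at their bound. Cfd, the adipocyte protease adipsin, had 0.220, 0, 0 and 0 CPM in blood, against 1409.9, 1452, 761 and 449 CPM in lymph node. Plin1, which coats fat droplets, had 0, 0.161, 0 and 0 CPM in blood, against 117, 92.5, 80.5 and 44.3 CPM in lymph node. Nodes 1 and 2 held the most and node 5 the least for both. The summed level of the list was 8.88 to 12.8 CPM in blood, against 1404 to 4087 CPM in lymph node without TMM scaling, and its part in the other node results was not tested. Plin4, another droplet protein, fell by 8.82 ± 0.26 and the epithelial keratin Krt18 by 6.29 ± 0.24.

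The 12 genes that fell most had no count in any blood library. Beside Glycam1 and the chemokines below, they include the lipogenic regulator Thrsp (595, 419.9, 291 and 191 CPM in lymph node) and the fat droplet gene Cidec (90.7, 81.6, 58.7 and 35.7 CPM). The dendritic cell phospholipase Pla2g2d had 71.7, 97.1, 106 and 124 CPM in lymph node and was at least 1028-fold lower in blood. The others were Mup22 (one of many near-identical genes, so its counts are uncertain), Ptn, Krt8, Krt19, Serpina3n and the chemokine Ccl8, which were at least 469-fold (Krt19) to 718-fold (Mup22) lower in blood. Thrsp, Cidec, Krt8 and Krt19 stood highest in node 1 and lowest in node 5, as Plin1 did.

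Chemokines that organize the node were at or near 0 in blood, while their receptors were present in both tissues. Ccl21a (chr4:42772860-42773993), the chemokine that brings Ccr7-bearing cells into the T zone, had 0 CPM in every blood library, against 433, 409, 383 and 627 CPM in lymph node, at least 4757-fold lower in blood. Ccl19, its companion ligand, had 0 CPM in every blood library, against 109, 103, 113 and 112 CPM in lymph node, at least 1111-fold lower. Their receptor Ccr7 had 232, 277, 225 and 294 CPM in blood, against 144, 122, 128 and 175 CPM in lymph node. Ccr7 rose by 0.86 ± 0.10 (SE, n = 4 pairs; edgeR adjusted p = 2.64e-05) on the TMM scale, a change of 0.07 without TMM factors, and its call was lost with animal 3 included (edgeR adjusted p = 0.0812). Ccl21a has near-identical copies in the mouse genome, and its counts may be split among them.

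Cxcl13, which draws B cells into follicles, had 0, 0, 0 and 0.423 CPM in blood, against 143, 237, 252 and 203 CPM in lymph node, and fell by 10.98 ± 0.33 (SE, n = 4 pairs; edgeR adjusted p = 1.01e-08), with its 3 blood counts all in animal 5. Its receptor Cxcr5 had 125, 163, 129.7 and 163 CPM in blood, against 87.6, 135, 157 and 115 CPM in lymph node, with overlapping groups and a log2 change of 0.25 ± 0.13 (SE, n = 4 pairs; edgeR adjusted p = 0.112) that was not called. Without TMM factors it turned to -0.54 (edgeR adjusted p = 0.00496), and without animal 4 it was 0.42 (edgeR adjusted p = 0.00787). Cxcl12, a retention signal made by stroma, had 0.110, 0, 0.124 and 0 CPM in blood, against 173, 183, 122 and 193 CPM in lymph node, and its receptor Cxcr4 had 166, 169, 238 and 273 CPM in blood, against 57.9, 64.5, 111 and 145 CPM in lymph node. Cxcl12 fell by 11.24 ± 0.24 (-11.90 without animal 4) and Cxcr4 rose by 1.23 ± 0.11 (SE, n = 4 pairs; edgeR adjusted p = 2.91e-06), with Cxcr4 in both tissues of animals 4 and 5 above that of animals 1 and 2.

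**Figure D4:**
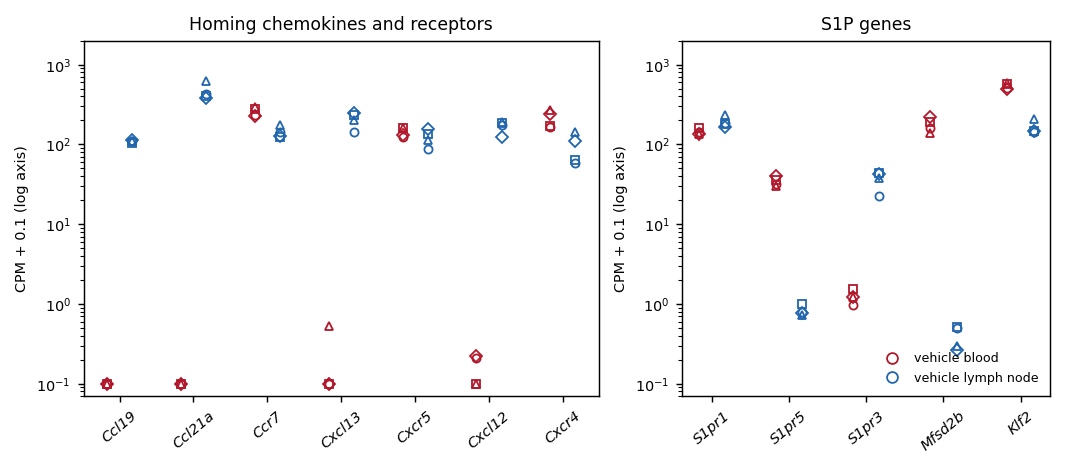
Levels by library of homing chemokines with their receptors (left) and of sphingosine-1-phosphate genes (right), as CPM plus 0.1 on a log axis, so that a point at 0.1 is 0 CPM. Red symbols are vehicle blood, blue symbols vehicle lymph node, and each shape is one animal (circle 1, square 2, diamond 4, triangle 5). The 3 stromal chemokines and Cxcl12 are near 0 in blood, and their receptors Ccr7, Cxcr5 and Cxcr4 differ far less.

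Over the whole chemokine list 22 of 31 tested fell and 9 rose, with a median of -6.06, or -3.56 with 11 members at 0 in blood set at their bound, and -6.72 without animal 4. Ccl22, a product of mature dendritic cells, had 0.880, 0.643, 0.248 and 0.282 CPM in blood, against 168, 129, 138.1 and 147 CPM in lymph node, and fell by 8.13 ± 0.19. The interferon-gamma-induced Cxcl9 fell by 6.91 ± 0.17 and Cxcl16, a ligand of Cxcr6, by 6.06 ± 0.16. Of 23 chemokine receptors 9 rose and 11 fell, beside 29.4% of all genes called higher and 41.1% lower, with a median of -0.46. Without TMM factors 7 rose and 14 fell (median -1.25), and with animal 3 included 6 rose and 5 fell (median 0.31). Ccr1, of neutrophils and monocytes, had 50.4, 39.9, 34.2 and 25 CPM in blood, against 10.8, 4.16, 4.6 and 2.95 CPM in lymph node, and rose by 2.85 ± 0.17 (edgeR adjusted p = 0.0520 with animal 3 included), and Cx3cr1, of non-classical monocytes, rose by 2.15 ± 0.13. Xcr1, of cross-presenting dendritic cells, fell by 4.55 ± 0.36, and Ackr3, a scavenger of Cxcl12, by 6.30 ± 0.47. Without animal 1 Xcr1 stood at -5.39, and without animal 4 Ackr3 at -7.47.

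Genes that make and read the sphingosine-1-phosphate gradient rose and fell in equal number, 7 each of 19 tested. Of all genes 29.4% were called higher and 41.1% lower. The median of the list was 0.18, or 0.06 without animal 2. It turned to -0.61 without TMM factors, where 4 rose and 13 fell, and to -0.37 with pan-leukocyte scaling. Mfsd2b, the exporter of the lipid in red cells and platelets, had 161, 191, 222 and 138.1 CPM in blood, against 0.398, 0.414, 0.163 and 0.198 CPM in lymph node, and rose by 9.25 ± 0.25 (SE, n = 4 pairs; edgeR adjusted p = 2.04e-08). S1pr1, the receptor by which lymphocytes leave nodes, had 142, 161, 135 and 135 CPM in blood, against 186, 179, 168 and 232 CPM in lymph node. S1pr1 fell by 0.41 ± 0.11 (SE, n = 4 pairs; edgeR adjusted p = 0.00625), in separate groups, and stood at 0.19 with animal 3 included (edgeR adjusted p = 0.822). Klf2, the factor that drives S1pr1, had 513, 572, 499.9 and 598 CPM in blood, against 143, 147, 147 and 206 CPM in lymph node, and rose by 1.78 ± 0.11 (SE, n = 4 pairs; edgeR adjusted p = 1.03e-07). S1pr3, of vessels and stroma, fell by 5.0 ± 0.16.

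Among adhesion and homing genes 13 of 21 rose and 8 fell, with a median of 1.06, and without TMM factors 10 rose and 9 fell, with a median of 0.27. Itgb2, the beta chain of the leukocyte integrins, had 585, 695, 649 and 520.5 CPM in blood, against 158, 155, 143 and 178 CPM in lymph node, and rose by 1.95 ± 0.13. It also led the 16 pan-leukocyte genes, of which 11 rose and none fell (median 0.44), while without TMM factors 3 rose and 10 fell (median -0.35). Ptprc, the common leukocyte antigen CD45, had 1513, 1504, 1625 and 1458 CPM in blood, against 641, 688, 774 and 802 CPM in lymph node, and rose by 1.07 ± 0.11 (SE, n = 4 pairs; edgeR adjusted p = 7.89e-06).

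Dendritic cell genes were mostly lower in blood. Of 17 genes of the mature migratory state 14 fell and 2 rose, with a median of -1.86. Fscn1, which bundles actin in mature dendritic cells, had 2.20, 1.61, 0.743 and 1.27 CPM in blood, against 289.9, 219, 298 and 252 CPM in lymph node, and fell by 7.51 ± 0.20 (SE, n = 4 pairs; edgeR adjusted p = 4.57e-10). Apol7c, induced as these cells mature, had 0.220, 0, 0.124 and 0 CPM in blood, against 146, 98.2, 161 and 114 CPM in lymph node, and Cacnb3 fell by 5.38 ± 0.18. The groups of all 3 were separate. Of 14 conventional dendritic cell genes 9 fell and 3 rose (10 and 1 without TMM factors), with a median of -0.81 that was -0.32 without animal 4 and -0.36 without animal 5, and with Zbtb46, a factor of that lineage, falling by 2.80 ± 0.21 and the growth factor receptor Flt3 by 1.28 ± 0.13. Itgax, the integrin CD11c, which other blood myeloid cells and NK cells carry, rose by 1.19 ± 0.11. The conventional list summed to 656, 667, 665 and 718 CPM in blood, against 516, 664, 655 and 619 CPM in lymph node. This sum was higher in blood in every pair, with overlapping groups. With animal 3 included 5 conventional dendritic cell genes fell and 2 rose, and the calls of Flt3 (edgeR adjusted p = 0.135) and Itgax (0.108) were lost.

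Of 11 plasmacytoid dendritic cell genes 6 fell and 3 rose, beside 41.1% of all genes called lower and 29.4% higher, with a median of -0.46. Without TMM factors 9 fell and 1 rose, while with animal 3 included 5 fell and 2 rose (median 0.11). Siglech, their surface lectin, had 1.87, 2.25, 2.48 and 4.66 CPM in blood, against 14.1, 13.3, 13.5 and 23.8 CPM in lymph node, and fell by 2.55 ± 0.17. Bst2, an antiviral tether, fell by 1.30 ± 0.10 and the adhesion molecule Cadm1 by 5.06 ± 0.52 (-5.90 without animal 4), while Runx2 rose by 1.5 ± 0.16. The summed level of the plasmacytoid list overlapped between the tissues, at 399 to 468 CPM in blood, against 377 to 454 CPM in lymph node. Of 11 MHC class II genes 4 fell and 1 rose (median -0.20), beside the same shares of all genes, 41.1% and 29.4%. Without TMM factors 10 fell and none rose. H2-Aa had 1116, 1259, 1071 and 1287 CPM in blood, against 1596, 1799.6, 1967 and 1659.5 CPM in lymph node, and fell by 0.57 ± 0.12. H2-Ab1 and H2-Eb1 fell by 0.53 ± 0.12 and 0.48 ± 0.11, and H2-Ob, a modulator of peptide loading in B cells, rose by 0.55 ± 0.14 but turned to -0.24 without TMM factors. No MHC class II gene was called with animal 3 included.

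The mouse gene Cd40, whose human counterpart the study's antibodies bind, had 39.9, 30.6, 39.1 and 37.8 CPM in blood, against 48.2, 49.6, 52.7 and 43.4 CPM in lymph node. It fell by 0.40 ± 0.10 (SE, n = 4 pairs; edgeR adjusted p = 0.00448), with separate groups. Of the 9 genes of its axis 3 rose and 6 fell, beside 29.4% of all genes called higher and 41.1% lower. The median of the axis was -0.40, and without TMM factors 8 fell and none rose. Cd86, a costimulatory ligand that CD40 signals induce, had 17, 14.3, 14.2 and 17.2 CPM in blood, against 51.8, 50.8, 59.2 and 58.2 CPM in lymph node, and fell by 1.81 ± 0.10. The adaptor Traf1 fell by 0.97 ± 0.08, Traf6 rose by 0.80 ± 0.10 and Traf3 by 0.47 ± 0.09, with Traf6 at 0.01 and Traf3 turning to -0.32 without TMM factors.

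Type I interferon-induced genes rose in 13 of 19 tested and fell in 2, with a median of 0.97, and without TMM factors 9 rose and 6 fell. Rsad2, the antiviral enzyme viperin, had 4414, 5308, 3523 and 4385 CPM in blood, against 16.8, 6.36, 5.82 and 4.94 CPM in lymph node, and rose by 9.19 ± 0.43 (SE, n = 4 pairs; edgeR adjusted p = 5.28e-06). Isg15, a ubiquitin-like modifier, had 568, 773, 448 and 418 CPM in blood, against 27.7, 18.1, 18 and 13.6 CPM in lymph node. Irf7, the factor that amplifies interferon production, had 969.9, 1342, 802 and 604 CPM in blood, against 127, 80.8, 74.3 and 68 CPM in lymph node. Isg15 rose by 4.84 ± 0.19 and Irf7 by 3.39 ± 0.19, and node 1 was the highest node for all 3. Node 1 also held the largest haemoglobin share of the nodes, 0.0834 percent, and the part of red cells in these values was not tested.

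Of 16 immediate early and heat shock genes 10 rose and 2 fell, with a median of 0.86, and without TMM factors 6 rose and 5 fell. Dusp1, a phosphatase of MAP kinases, had 638, 242, 298 and 317 CPM in blood, against 17.2, 13.8, 16.9 and 17 CPM in lymph node, and rose by 4.42 ± 0.21 (SE, n = 4 pairs; edgeR adjusted p = 1.18e-06), with blood 1 the highest blood library. Jund, a subunit of AP-1, rose by 1.5 ± 0.11, while Egr2, induced by antigen receptor signals, fell by 3.07 ± 0.22, at 1.43, 1.45, 1.61 and 0.847 CPM in blood, against 10.7, 12.7, 11.2 and 10.6 CPM in lymph node. All 13 mitochondrially encoded mRNAs fell, with a median of -1.31. Among them mt-Nd2, a subunit of complex I, had 731, 811, 680.3 and 830.2 CPM in blood, against 3157, 2618, 1867 and 2542 CPM in lymph node, and fell by 1.72 ± 0.13 (SE, n = 4 pairs; edgeR adjusted p = 8.62e-07), and mt-Nd1 fell by 1.43 ± 0.13.

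Blood and lymph node of treated animals, which share no library with the vehicle mice, were fitted in the same way. With CD40 mAb (animals 2 to 5) 62.6% of 15881 genes were called, 25.4% higher and 37.2% lower in blood. With ATOR-4066 (animals 1, 3, 4 and 5) 61.2% of 16331 were called, 25.3% higher and 35.9% lower. Of the 11144 genes called in vehicle mice and tested with CD40 mAb, 89.8% had the same direction, 70.5% were called in it and 299 were called in the other. With ATOR-4066 these were 97.0% of 11263 genes, 78.1% and 15.

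Platelet genes had a median log2 change of 8.34 in vehicle mice, 9.62 in CD40 mAb mice and 9.54 in ATOR-4066 mice. Mature neutrophil genes had 5.03 in vehicle mice, 6.10 in CD40 mAb mice and 5.50 in ATOR-4066 mice, and germinal center genes had -3.44 in vehicle mice, -3.03 in CD40 mAb mice and -3.58 in ATOR-4066 mice. B cell genes had medians of 0.49 in vehicle mice, -0.73 in CD40 mAb mice and 0.19 in ATOR-4066 mice, so the CD40 mAb mice lay on the other side of 0, a side that in vehicle mice depends on the scaling. Type I interferon-induced genes had medians of 0.97 in vehicle mice, 2.96 in CD40 mAb mice and 1.24 in ATOR-4066 mice, and heme synthesis and iron genes had 0.25 in vehicle mice, 2.78 in CD40 mAb mice and 0.63 in ATOR-4066 mice. Whether the tissue difference itself differed between treatments was not tested.

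**Figure D5:**
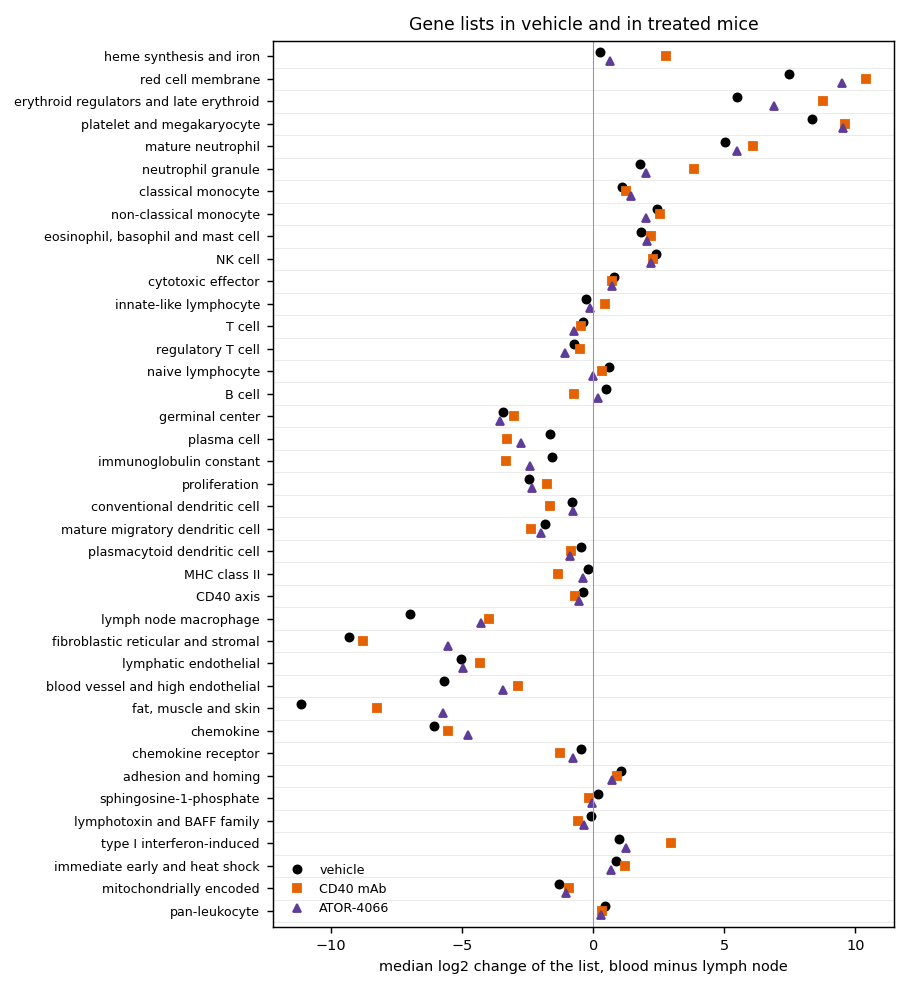
Median log2 change of each gene list, blood minus lymph node, in vehicle mice (black circles), CD40 mAb mice (orange squares) and ATOR-4066 mice (purple triangles), 4 pairs each. The platelet and germinal center lists lie on the same side in all 3 treatments, and the B cell list lies at 0.49, -0.73 and 0.19. The B cell, naive lymphocyte, heme, sphingosine-1-phosphate and pan-leukocyte medians of vehicle mice turn negative without TMM factors.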

How the data were processed

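The series holds 52 libraries, of which 8 are compared here and 16 more (blood and lymph node of treated mice) are set beside them. The authors deposited 1 table of estimated counts per gene, which the name of the deposited table credits to salmon, and 11.0% of its cells are not whole. Reads were from polyA RNA with a stranded kit, per the labels' protocols. STAR 5.1 and GRCm38 are named in the submitters' processing notes. Here the counts were rounded and the 14 haemoglobin genes left out of library sizes and tests. Of 57010 identifiers, 52029 matched GENCODE vM21, and 147 symbols stood on more than 1 identifier. Genes passing the edgeR filter (a count of 10 in enough libraries, 15 in total) were tested, 16846 in all.

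The test was the quasi-likelihood test of edgeR 4.0.16 in R 4.3.3, with TMM factors, animal as a term and Benjamini-Hochberg adjustment, and glmTreat for changes beyond 2-fold. Single values were compared by the exact sign-flip test over the 4 pairs. The script was tested on simulated data. The 39 gene lists beside haemoglobin, with 654 entries of which 636 were tested, 17 were under the filter and 1 was not found by symbol, and the members themselves, were chosen with earlier results of these data known. Named genes are the 4 of smallest p in each list, the 12 with the largest change in each direction among genes beyond 2-fold with an average of at least 3 on the log2-CPM scale (without predicted genes, pseudogenes and variable segments of receptor or immunoglobulin genes), and the homing and CD40 genes Cd40, Ptprc, S1pr1, Ccr7, Ccl19, Ccl21a, Cxcl13, Cxcr5, Cxcl12 and Cxcr4, with others marked where they appear. Some genes that this rule names are not reported here.

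Alternatives were no TMM factors, scaling to pan-leukocyte genes, DESeq2 1.42.0, limma 3.58.1 voom, other filters, other library sizes, animal 3 included, 1 fit of 3 treatments, no animal term, and each animal left out. Floors of 3 counts cover counting error only.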

Additional observations from a re-analysis of the deposited data

Results flagged for a closer look

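In 25 of 342 groups of 4 libraries, 1 library stood apart from the other 3 by Dixon's test. Chance flags about 1 in 20 groups, so a flag alone is no finding. In vehicle blood 1 this held for Cd300e at 21.3 CPM (others 25.9 to 26.2) and Cfd at 0.220 CPM (others 0). In vehicle blood 2 this held for mt-Rnr2 at 25273 CPM (others 19675 to 20229), Plin1 at 0.161 CPM (others 0) and Tpsb2 at 0.322 CPM (others 0). In vehicle blood 4 this held for Ighe at 0.124 CPM (others 0), Slc4a1 at 1589.8 CPM (others 1967 to 2011) and Trim10 at 510.0 CPM (others 659 to 669). In vehicle blood 5 this held for Cxcl13 at 0.423 CPM (others 0), Ifitm6 at 25.4 CPM (others 38.3 to 39.8) and Stab2 at 0.564 CPM (others 0.110 to 0.161). In vehicle lymph node 1 this held for C1qb at 208 CPM (others 127 to 131), Epb42 at 0.0318 CPM (others 0), Jund at 211 CPM (others 245 to 251), mt-Rnr1 at 441 CPM (others 315 to 331), Rsad2 at 16.8 CPM (others 4.94 to 6.36), Runx2 at 10.8 CPM (others 7.90 to 8.38), Slc4a1 at 0.350 CPM (others 0 to 0.0552) and Trem1 at 0.907 CPM (others 0.173 to 0.285). In vehicle lymph node 2 this held for Dusp1 at 13.8 CPM (others 16.9 to 17.2) and Sdc1 at 40.4 CPM (others 22.7 to 23.7). In vehicle lymph node 5 this held for Cd209b at 202 CPM (others 114 to 120.0), Klf2 at 206 CPM (others 143 to 147), Siglech at 23.8 CPM (others 13.3 to 14.1) and Tnfrsf4 at 12.3 CPM (others 15.2 to 15.7). The flags at 0 in the other libraries rest on a few counts each. 

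The mean log2 difference of the B cell genes, blood minus lymph node, was -0.75 in CD40 mAb mice, with -0.75, -0.38, -0.81 and -1.05 in animals 2 to 5. On the same scale it was 0.71, 0.34, 0.04 and 0.70 in animals 1, 2, 4 and 5 of the vehicle mice. In ATOR-4066 mice it was 0.60, -0.43, 0.43 and 0.51 in animals 1, 3, 4 and 5. Every CD40 mAb animal lay below 0 and every vehicle animal above it, while ATOR-4066 animal 3 lay below 0 and the others above. The difference between the treatments was not tested. Without TMM factors the vehicle median of these genes was -0.31, and no such value is given here for the treated mice.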

How the results depend on the processing

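Counts of called genes were within 1.5 times the reported 4957 higher and 6925 lower under DESeq2 (5030 and 6650), limma-voom (5141 and 6920), no low-count filter (5159 and 7992), a filter at 50 counts (4459 and 5827), haemoglobin kept (4925 and 7075), erythroid and platelet genes out of the library size (4996 and 6882), animal 3 included (3873 and 5330) and 1 fit of all 3 treatments (4542 and 5943). With ribosomal RNA genes out of the library size, an alternative chosen after seeing the data, they were 4975 and 6923. Without the animal as a replicate block they were 5127 and 7084, and 8095 (CD40 mAb) and 9136 (ATOR-4066) genes were called the same way in treated mice. As a check of the pairing, deviations of same-numbered libraries correlated at -0.003 to 0.09, none of 4 over 0.1. Of the blood libraries 3 of 4 correlated best with the node of their own number. Node 2 (0.042 against 0.037) and node 4 (0.059 against -0.003) correlated better with blood 5 than with their own number. The pairing therefore rests on the titles.

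Scaling moved the counts most. Without TMM factors 2036 genes were higher and 11551 lower, and 1055 and 6547 beyond 2-fold. With pan-leukocyte scaling 2560 were higher and 10005 lower, and 1202 and 5066 beyond 2-fold. Leaving out each animal gave 4487 to 4682 higher, 6398 to 6765 lower, a T to B difference of -1.13 to -0.65 and a haemoglobin difference of 72.5 to 74.4 percentage points, where the exact test over 3 pairs cannot go below 0.25.

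Medians that turned without TMM factors were those of heme genes (-0.54), B cell genes (-0.31), naive lymphocyte genes (-0.20), sphingosine-1-phosphate genes (-0.61) and pan-leukocyte genes (-0.35). With pan-leukocyte scaling heme genes stood at -0.30, B cell genes at -0.064, sphingosine-1-phosphate genes at -0.37 and pan-leukocyte genes at -0.11. With animal 3 included, whose node library had 217 CPM of Ptprc without TMM scaling, the medians of plasmacytoid dendritic cell genes (0.11), T cell genes (0.17), chemokine receptors (0.31) and lymphotoxin and BAFF genes (0.21) turned, as did S1pr1 (0.19). Genes that turned without TMM factors and with pan-leukocyte scaling were Cxcr5 (-0.54 and -0.30), H2-Ob (-0.24 and -0.0014), Ighd (-0.31 and -0.069), Ighm (-0.37 and -0.13) and Traf3 (-0.32 and -0.079), and without TMM factors alone Ebf1 (-0.023) and Fcmr (-0.083). The cause was not tested.

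Values that hang on 1 library stand beside the results above. Counts of called list members that moved over 1.5 times with animal 3 included, and are not given above, were those of fat, muscle and skin genes (8 fell), lymphatic genes (5 fell), vessel genes (2 rose), type I interferon-induced genes (7 rose), classical monocyte genes (7 rose), lymphotoxin and BAFF genes (5 fell), CD40 axis genes (3 fell) and innate-like lymphocyte genes (1 rose, none fell). The smaller non-haemoglobin depth of blood limits genes near 0 there, whose fitted changes also differed between tools.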

Other observations

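Ribosomal RNA genes, chosen after their values were seen, went the other way from mitochondrial mRNAs. The mitochondrial 16S gene mt-Rnr2 had 19877, 25273, 20229 and 19675 CPM in blood, against 721, 538, 508 and 572 CPM in lymph node, a log2 change of 5.19 ± 0.19 (SE, n = 4 pairs; edgeR adjusted p = 1.87e-09). The 12S gene mt-Rnr1 had 10665, 13076, 11180.4 and 9933 CPM in blood, against 441, 331, 315 and 329.9 CPM in lymph node, a change of 4.99 ± 0.17. The 18S copy Rn18s-rs5 averaged 72442 ± 43009 CPM in blood and 5463 ± 2102 CPM in lymph node (SD, n = 4 each), a change of 3.65 ± 0.33. No blood library overlapped a node library for these genes, in libraries that the labels describe as polyA RNA, while all 13 mitochondrial mRNAs fell.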
